A study of Mus musculus with 6 samples.

Results

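The genes described here are 10 markers of endothelial cells, the cells that line blood vessels, measured in whole heads of mouse embryos at E9.0. They were chosen by symbol from the table of read counts: *Kdr*, *Flt1*, *Tek*, *Tie1*, *Cdh5*, *Pecam1*, *Emcn*, *Sox17*, *Sox18* and *Erg*, which are 10 of its 24421 genes. All 10 had a row, and all 10 passed the filter on low counts. RNAseq had been performed on 3 WT and 3 mutant libraries, each made from 2 pooled heads of the same genotype and similar somite number. The mutants, *Snrpb* ncc+/-, carry 1 deleted copy of *Snrpb*, which encodes a core protein of the spliceosome, in the cells where Wnt1-Cre2 is active. These are the neural tube and the neural crest cells, so that other cells of the head, endothelial cells among them, keep both copies. The labels give the genotypes as SnrpB +/+ and SnrpB+/-, the strain as C57BL/6 and, as cell line, CD1. The paper states that the embryos it studied had a mixed background of CD1 and C57BL/6J. Whether the WT pools carried the Cre transgene is not stated in the sources used here. The comparison asks whether the endothelial genes of the head differed between genotypes at a stage before defects of its shape.

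Endothelial cells of the head arise from mesoderm, assemble into the first vessel plexus and then remodel it into arteries and veins. VEGF signals through the receptor KDR, while FLT1 binds VEGF and limits its signal, and angiopoietins signal through TEK, which pairs with TIE1. CDH5 and PECAM1 hold endothelial cells together, EMCN coats their surface, and ERG and the SOXF factors SOX17 and SOX18 drive endothelial genes, with SOX17 best known from arteries. In RNA of a whole head, fewer endothelial cells and less RNA per endothelial cell cannot be told apart.

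Many endothelial genes carry binding sites of ETS factors, the family of ERG, whose core is GGAA. The 250 bases before the start of 4 of the genes are shown, from RefSeq (GRCm38.p6). *Kdr*, *Tek* and *Emcn* stand for genes whose levels followed the mean of the 10 over the libraries, and *Flt1* for one that followed it least. Capitals mark each GGAA and its reverse complement TTCC, and each sequence is written 5′ to 3′ on the strand of its gene.
Kdr, chr5:75978456-75978705, minus strand: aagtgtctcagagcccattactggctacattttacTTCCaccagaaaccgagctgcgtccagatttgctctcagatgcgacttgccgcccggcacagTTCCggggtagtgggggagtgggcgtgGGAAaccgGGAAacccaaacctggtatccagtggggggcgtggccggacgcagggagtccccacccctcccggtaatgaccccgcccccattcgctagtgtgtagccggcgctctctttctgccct
Tek, chr4:94739039-94739288, plus strand: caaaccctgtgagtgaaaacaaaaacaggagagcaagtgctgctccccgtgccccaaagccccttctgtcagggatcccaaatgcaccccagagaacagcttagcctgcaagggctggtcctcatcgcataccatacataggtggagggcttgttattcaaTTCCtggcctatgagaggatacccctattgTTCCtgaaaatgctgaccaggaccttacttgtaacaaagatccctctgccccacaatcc
Emcn, chr3:137340828-137341077, plus strand: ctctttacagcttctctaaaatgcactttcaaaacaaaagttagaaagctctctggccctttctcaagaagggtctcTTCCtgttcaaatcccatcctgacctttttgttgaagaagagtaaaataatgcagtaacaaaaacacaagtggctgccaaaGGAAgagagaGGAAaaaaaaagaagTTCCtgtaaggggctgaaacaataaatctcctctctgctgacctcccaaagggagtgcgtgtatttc
Flt1, chr5:147726012-147726261, minus strand: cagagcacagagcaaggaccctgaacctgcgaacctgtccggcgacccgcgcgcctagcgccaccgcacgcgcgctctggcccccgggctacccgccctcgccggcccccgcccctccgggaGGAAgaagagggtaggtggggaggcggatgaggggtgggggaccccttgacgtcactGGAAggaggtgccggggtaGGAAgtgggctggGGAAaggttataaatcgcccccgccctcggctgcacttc

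These windows held 4 cores in *Kdr*, 2 in *Tek*, 4 in *Emcn* and 4 in *Flt1*. Of the same windows of 27025 genes, 93.4% held at least 1 core, with a median of 3, and 33.4% held 4 or more. A sequence was found for 6 of the 10 genes. The others with a sequence, *Tie1* and *Erg*, had 7 and 0 cores. *Erg* had 3 promoter entries where each other gene with a sequence had 1, and which of them the 0 describes is not stated here. A SOX core, ACAAT or its reverse complement ATTGT, was in the windows of *Tek* and *Emcn* and in 28.3% of all windows. Such matches are descriptions of letters and are common, and they do not mark bound sites.

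Levels are given as CPM, counts per 1000000 counts of a library, scaled by edgeR's TMM factors. Total counts were 36378803 to 58946111 in WT and 42398206 to 74909774 in mutants. The 10 genes had 190 to 7108 counts in a library, fewest for *Sox17*, where counting error is largest relative to the level. Its part in the spread between pools was not tested. *Snrpb* itself was at 430, 438 and 414 CPM in WT and 436, 412 and 430 CPM in the mutant pools. Its log2 fold change was -0.00 ± 0.04 (SE), so that its level in whole heads did not separate the genotypes and does not check the labels. Head markers were present, with *Otx2*, a forebrain and midbrain gene, at means of 121 ± 17.8 in WT and 111 ± 6.04 in the mutant pools (CPM, SD, n = 3).

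None of the 10 endothelial genes passed the test between genotypes. With edgeR's quasi-likelihood test, which compares mutant with WT and adjusts P over all 15584 tested genes by Benjamini-Hochberg, 0 of 10 had an adjusted P under 0.05, where 0.00642% of all tested genes did. None had an unadjusted P under 0.05, against 8.43% of all tested genes. DESeq2 called 0 of 10 at an adjusted P of 0.05, against 0.651% of the genes with an adjusted P. An unadjusted DESeq2 P under 0.05 was found for 0 of 10, against 5.19% of the 21082 genes with a P, those with low counts included. The fitted level was higher in mutants for 4 genes and lower for 6, with a median log2 fold change of -0.03 where the median over all tested genes was 0.000405. In the plot of levels by library, WT and mutant libraries overlapped for 9 genes, and the exception was *Sox18*.

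**Figure D1:**
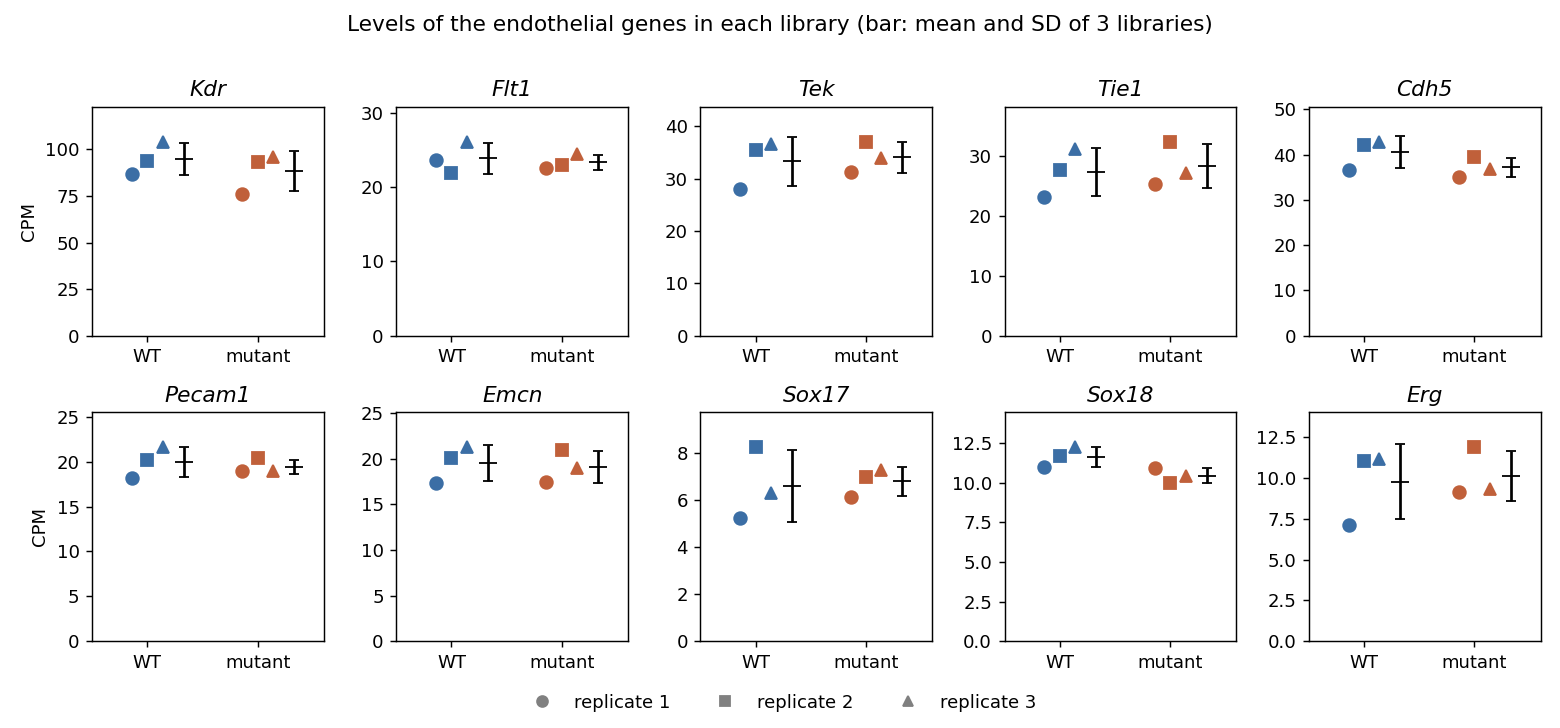
Levels of the 10 endothelial genes in CPM (vertical axis, from 0) in the 3 WT and 3 mutant libraries, with the shape of a point giving its replicate number and the bar the mean and SD. Groups overlapped for 9 genes, and for *Sox18* all mutant libraries were below all WT libraries, with 10.94 against 10.99 CPM at the nearest.

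Among the receptors, *Kdr* (chr5:75932827-75978458, mm10) was at 86.8, 93.6 and 104 CPM in WT and 76.2, 93.5 and 96.0 CPM in mutants. Replicate 1 was the lowest library of each genotype, and the other mutants lay inside the WT range. Its log2 fold change was -0.10 ± 0.10 (SE), with an adjusted P of 0.837 in edgeR. *Flt1* (chr5:147561604-147726011), the VEGF trap, was at 23.6, 21.9 and 26.1 CPM in WT and 22.6, 22.9 and 24.4 CPM in mutants. All 3 mutant libraries fell within the WT range, and the log2 fold change was -0.03 ± 0.07.

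*Tek* (chr4:94739289-94874976), the angiopoietin receptor, was at 28.0, 35.5 and 36.6 CPM in WT and 31.2, 37.0 and 34.0 CPM in mutants. WT replicate 1 was the lowest library and mutant replicate 2 the highest. The log2 fold change of *Tek* was 0.03 ± 0.11. Its partner *Tie1* (chr4:118471191-118490061) was at 23.3, 27.7 and 31.3 CPM in WT and 25.4, 32.5 and 27.3 CPM in mutants, with the same lowest and highest libraries as *Tek* and a log2 fold change of 0.05 ± 0.13.

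The balance within each receptor pair was compared per length of exon. The ratio of *Flt1* to *Kdr* was 0.169 ± 0.0126 in WT and 0.178 ± 0.0184 in mutants (SD, n = 3, two-sided exact permutation P = 0.6). That of *Tie1* to *Tek* was 0.789 ± 0.0367 in WT and 0.797 ± 0.0379 in mutants (n = 3, exact permutation P = 0.8). Both ratios overlapped between genotypes, and 3 libraries against 3 allow no P under 0.1.

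Of the genes of the junction and the cell surface, *Cdh5* (chr8:104101625-104144511), or VE-cadherin, was at 36.6, 42.2 and 42.9 CPM in WT and 35.1, 39.5 and 36.9 CPM in mutants. Mutant replicate 1 was the lowest library, and WT replicate 1 lay below the other two mutant libraries. The log2 fold change of *Cdh5* was -0.13 ± 0.07, or -8.34%, whose 95% interval ran from -18.2% to 2.69%, with an adjusted P of 0.675 in edgeR. An antisense gene, *Gm29682*, lies within its bounds on the other strand without sharing an exon.

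*Pecam1* (chr11:106654217-106750628), or CD31, was at 18.2, 20.1 and 21.6 CPM in WT and 19.0, 20.4 and 18.9 CPM in mutants. All mutant values of *Pecam1* fell inside the WT range, and the log2 fold change was -0.04 ± 0.07. *Emcn* (chr3:137341067-137432185), the sialomucin endomucin, was at 17.4, 20.0 and 21.2 CPM in WT and 17.5, 20.9 and 19.0 CPM in mutants, again inside the WT range, with a log2 fold change of -0.03 ± 0.09.

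Of the transcription factors, *Sox17* (chr1:4490931-4497354) was at 5.22, 8.23 and 6.27 CPM in WT and 6.11, 6.95 and 7.28 CPM in mutants. The lowest and the highest of its 6 libraries were both WT, and the log2 fold change was 0.04 ± 0.16. Without a stated strand setting, reads of *Sox17* cannot be told apart from those of *Gm37587*, whose exons overlap it on the other strand. *Erg* (chr16:95359169-95586593) was at 7.11, 11.0 and 11.2 CPM in WT and 9.16, 11.9 and 9.33 CPM in mutants. It had the widest interval of the 10, from -23.4% to 39.9%, around a log2 fold change of 0.05 ± 0.19.

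*Sox18* (chr2:181669836-181671640), which acts in vessel and lymphatic growth, was at 11.0, 11.7 and 12.2 CPM in WT and 10.9, 9.98 and 10.4 CPM in mutants. It was the 1 gene of 10 whose genotypes did not overlap, where 15.2% of all tested genes did not. Its log2 fold change was -0.16 ± 0.08, or -10.3% with an interval from -20.9% to 1.71%, and its adjusted P in edgeR, 0.64, was the lowest of the 10. The ratio of *Sox17* to *Sox18* per length was 0.191 ± 0.0419 in WT and 0.221 ± 0.0273 in mutants (SD, n = 3, two-sided exact permutation P = 0.4).

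**Figure D2:**
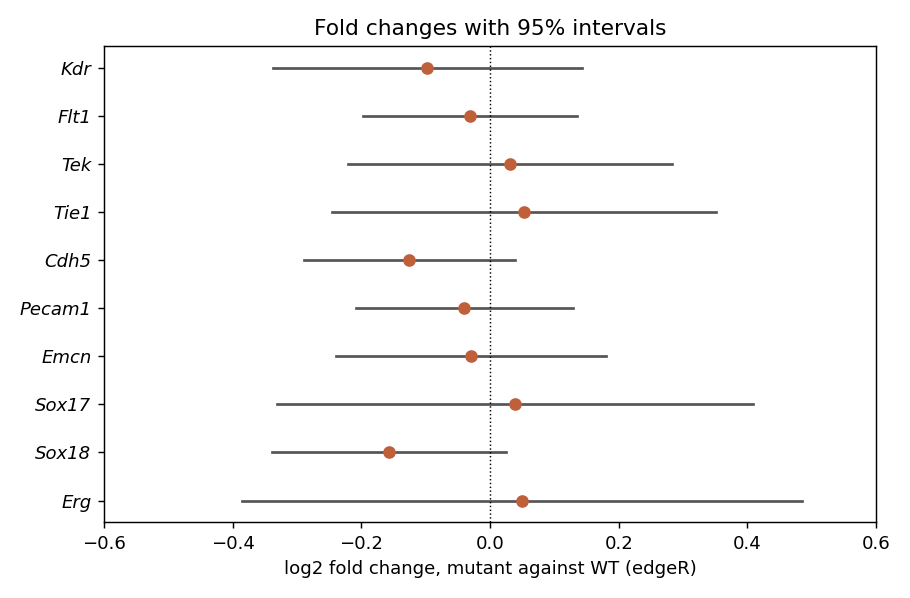
Log2 fold changes of the 10 genes, mutant against WT, from edgeR (points), with 95% intervals (lines). Every interval includes 0, from -0.16 for *Sox18* to 0.05 for *Tie1* at the points.

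Compared per length, in CPM per kilobase of annotated exon over all 6 libraries, the level was highest for *Kdr* (10.2 ± 1.04, SD) and *Cdh5* (9.25 ± 0.757). *Tek* (7.15 ± 0.747), *Sox18* (6.81 ± 0.506) and *Tie1* (5.68 ± 0.706) followed, then *Emcn* (3.57 ± 0.311), *Pecam1* (3.16 ± 0.198) and *Erg* (2.87 ± 0.507). *Flt1* (1.75 ± 0.111) and *Sox17* (1.40 ± 0.219) were lowest. The ranges of neighbours in this order overlapped except between *Cdh5* and *Tek*, *Tie1* and *Emcn*, and *Erg* and *Flt1*. *Flt1* has the longest annotated exons, 13504 bases. With the longest transcript as length, *Emcn* and *Pecam1* changed places, as did *Erg* and *Flt1*. Among 14982 genes, *Kdr* stood at percentile 69.4 and *Sox17* at percentile 32.0, with the other 8 between them.

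Within each genotype the pools differed from each other in a similar way for most of the genes. WT replicate 1 was the lowest of 3 WT libraries for 9 of the 10 genes and WT replicate 3 the highest for 9. Mutant replicate 1 was the lowest mutant for 8. Averaged over the genes, log2 CPM differed from the mean of the 6 libraries by -0.17, 0.08 and 0.13 in WT and -0.11, 0.08 and -0.00 in mutants. *Emcn*, *Pecam1*, *Tek* and *Cdh5* followed the mean of the 10 most closely (Pearson r of 0.969, 0.947, 0.922 and 0.903 over 6 libraries), and *Sox17*, *Sox18* and *Flt1* least (0.568, 0.386 and 0.385). These r values are descriptions, since all genes of a library come from the same pool and each gene is part of the mean.

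**Figure D3:**
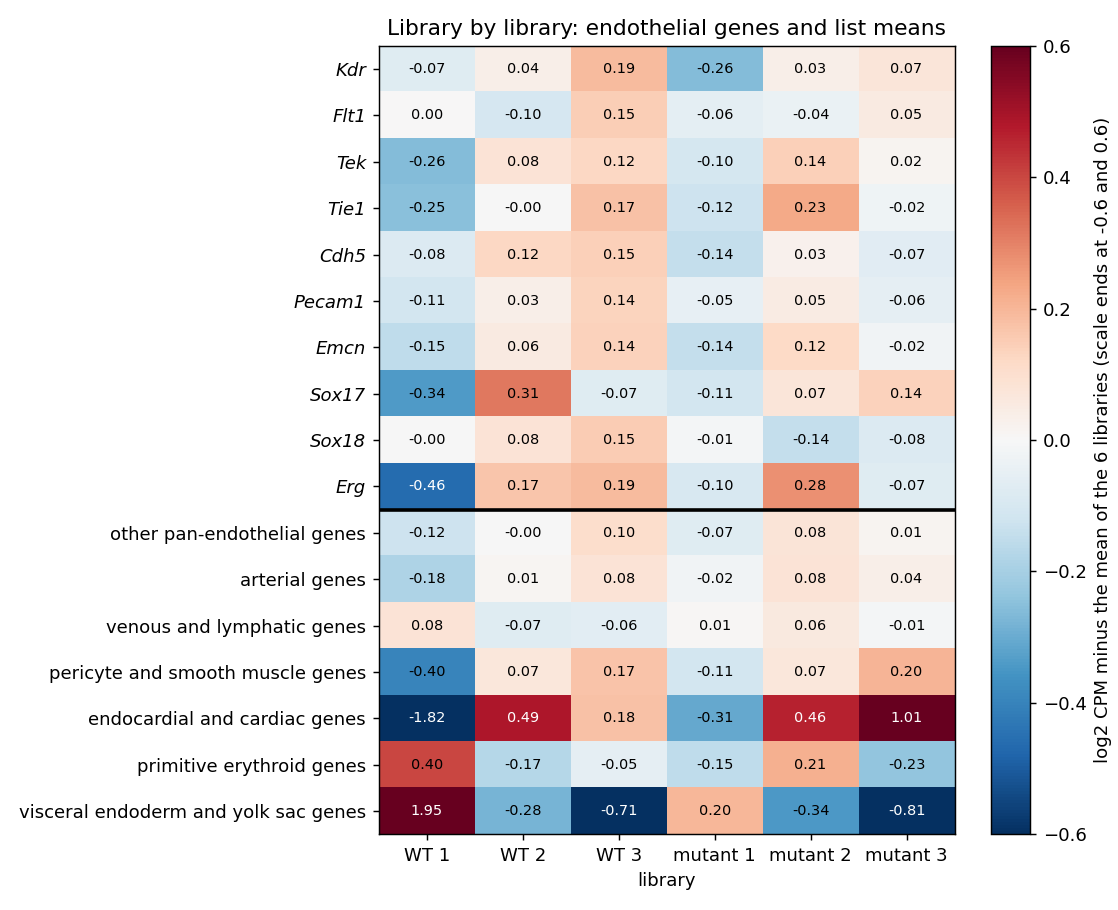
Log2 CPM minus the mean of the 6 libraries (colour and printed value) for each of the 10 genes, above the line, and for the mean of 7 marker lists, below it, by library. WT replicate 1 was low for most of the endothelial genes and for the cardiac list (-1.82) and high for the visceral endoderm and yolk sac list (1.95).

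WT replicate 1 also stood apart in markers of other tissues. Its 6 visceral endoderm and yolk sac genes summed to 32.1 CPM, against 6.54 to 8.52 CPM in the other 5 libraries. Its 8 endocardial and cardiac genes summed to 41.7 CPM, against 77.7 to 140 CPM, and its 10 primitive erythroid genes to 1530 CPM, against 905 to 1250 CPM, with *Hba-a1* at 0 everywhere. Their part in the endothelial levels was not tested. Without WT replicate 1, all 10 endothelial genes were lower in mutants, where 51.0% of all tested genes were, with log2 fold changes from -0.20 to -0.04, a median of -0.11 and a lowest adjusted P of 0.367 in edgeR. *Cdh5* and *Sox18* then had an unadjusted P under 0.05, as did 10.03% of all tested genes, and 0 passed the adjusted threshold. Without WT replicate 3, the highest WT library, 7 of the 10 were higher in mutants and the median was 0.02. The direction of most of the 10 thus changed with single pools.

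Further genes linked to endothelium were read from 5 lists, which held 73 genes outside the 10, 72 of them tested. *Flt4* and *Nrp2* were both in the list of co-receptors and in the venous and lymphatic list. In WT means, *Nrp2* at 171 CPM and *Ets1* at 140 CPM stood above *Kdr*, the highest of the 10, at 94.9 CPM. Other cells of the head can also make genes of these lists, and their part in the values was not tested. Of the 72, 39 were higher and 33 lower in mutants, with a median log2 fold change of 0.02, and 0 passed the adjusted threshold in edgeR or in DESeq2. This split changed with single pools, to 28 higher and 44 lower without WT replicate 1 and to 47 higher and 25 lower without WT replicate 3. In edgeR, 7 had an unadjusted P under 0.05, which is 9.72% of them, against 8.43% of all tested genes. Their number ranged from 3 without mutant replicate 3 to 11 without WT replicate 2, where 6.675% and 11.38% of all tested genes had such a P. In DESeq2 8 did, against 5.19% of the 21082 genes with a P. These include genes with low counts that edgeR's filter left out, so that this share has another base than that of edgeR. The groups did not overlap for 5, or 6.94%, against 15.2% of all tested genes. The change was within 0.25 on the log2 scale, in either direction, for 64 of the 72.

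Among 15 VEGF and angiopoietin ligands and co-receptors, 7 were higher and 8 lower. The VEGF ligand *Vegfa* had means of 53.3 ± 2.21 in WT and 59.6 ± 1.80 in the mutant pools (CPM, SD, n = 3), without overlap, with a log2 fold change of 0.16 ± 0.05 and an adjusted P of 0.437 in edgeR. *Angpt2*, a ligand of TEK made by remodelling vessels, had means of 4.73 ± 0.256 in WT and 5.97 ± 0.295 in the mutant pools, also without overlap, with a log2 fold change of 0.34 ± 0.10 and the same adjusted P of 0.437 in edgeR. The lymphatic ligand *Vegfc* had a log2 fold change of -0.13 ± 0.07. Beside them, the receptors *Kdr* and *Tek* had log2 fold changes of -0.10 and 0.03, and none of these genes passed the threshold.

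Of 23 other pan-endothelial genes, 12 were higher and 11 lower, with 7 higher without WT replicate 1 and 17 higher without WT replicate 3. *Adgrf5*, an adhesion receptor of endothelium, was at 14.3, 13.6 and 16.3 CPM in WT and 11.6, 11.1 and 11.7 CPM in mutants, every mutant library below every WT library. Its log2 fold change was -0.36 ± 0.09, and its adjusted P was 0.363 in edgeR and 0.0574 in DESeq2. *Egfl7*, a secreted vessel factor, had a log2 fold change of 0.21 ± 0.08, and *Mmrn2*, a matrix protein of endothelium, one of 0.36 ± 0.14. Both of these overlapped between genotypes.

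Of 12 arterial genes, 9 were higher in mutants and 3 lower, with a median log2 fold change of 0.09. Without WT replicate 1, the lowest library for this list, 6 were higher and 6 lower, with a median of 0.00, and *Gja4*, *Gja5* and *Acvrl1*, named after their values were seen, were among the lower. The Notch ligand *Jag1* had means of 151 ± 3.32 in WT and 162 ± 2.52 in the mutant pools and a log2 fold change of 0.11 ± 0.04 with an adjusted P of 0.484 in edgeR. *Efnb2*, which marks arteries, had a log2 fold change of 0.09 ± 0.05 and *Hey2*, a Notch target, one of 0.17 ± 0.14. *Jag1* and *Efnb2* are also made by other cells of the head, so these levels are not those of vessels alone. Of 10 venous and lymphatic genes, *Emcn* included, 2 were higher and 8 lower, with a median of -0.04. With a library left out, 1 to 4 were higher, of 9 or 10 tested, a range computed after seeing the data. *Lyve1* and *Stab2* had few counts, 3 to 13 and 5 to 27 in a library. *Aplnr*, the apelin receptor, had a log2 fold change of -0.19 ± 0.10, *Prox1*, the lymphatic regulator, one of -0.12 ± 0.11, and *Stab2* one of 0.89 ± 0.45 at 0.174 CPM in WT and 0.298 CPM in mutants.

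Of 18 endothelial and hemangioblast transcription factors, *Sox17*, *Sox18* and *Erg* included, 12 were higher and 6 lower, with a median of 0.04, and 5 were higher and 13 lower without WT replicate 1, with a median of -0.04. *Sox7*, the third SOXF gene, was at means of 4.76 ± 0.437 in WT and 3.82 ± 0.400 in the mutant pools without overlap, with a log2 fold change of -0.32 ± 0.13 and an adjusted P of 0.547 in edgeR. The SOXF genes had log2 fold changes of -0.32, 0.04 and -0.16 for *Sox7*, *Sox17* and *Sox18*. *Etv2*, which starts the endothelial fate, was at 8.39 ± 2.25 in WT and 10.5 ± 0.672 in the mutant pools (CPM), and *Hhex* had a log2 fold change of 0.20 ± 0.14.

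**Figure D4:**
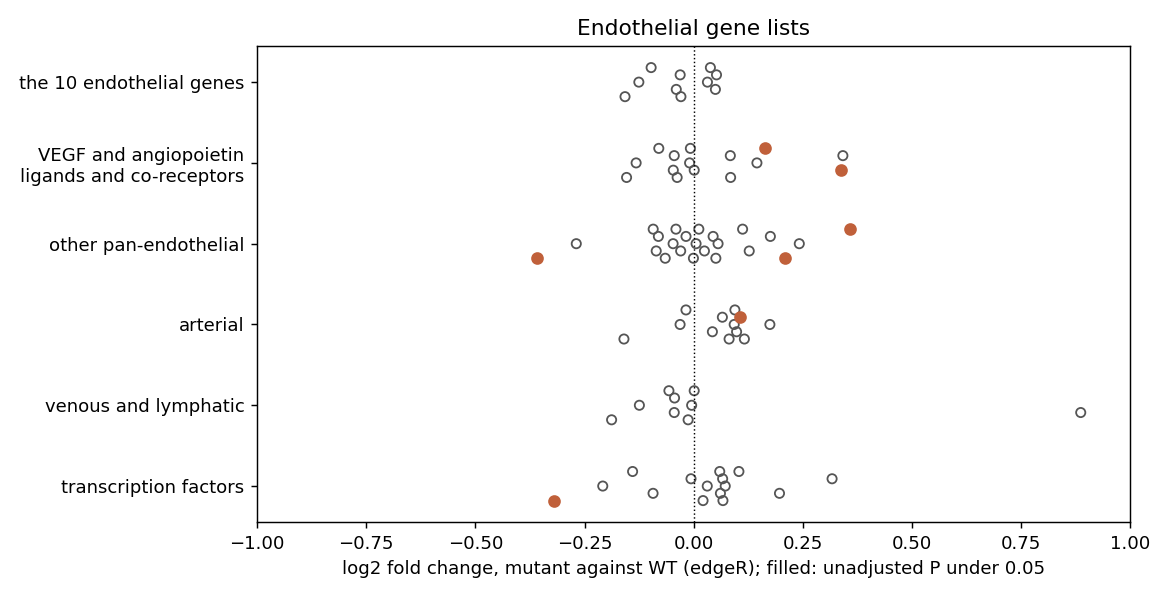
Log2 fold changes, mutant against WT, for the 10 endothelial genes and for the genes of 5 further endothelial lists, each circle being 1 gene, with *Flt4* and *Nrp2* drawn in both of their lists (filled where the unadjusted P was under 0.05, vertical scatter within a list for visibility only). None of the 10 is filled, 7 of the 72 others are, and none passed the adjusted threshold.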

How the data were processed

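Total RNA of pooled heads, without ribosomal RNA, was sequenced from stranded libraries. After trimming and mapping to mm10 with STAR, with Gencode M2 as annotation, the authors deposited raw counts per gene symbol. The paper names HTSeq and the submitters' processing notes name featureCounts for counting, and the strand setting is not given in the sources used here. The 10 genes and all lists were chosen with earlier results of these data known. The test was that of edgeR (4.0.16, in R 4.3.3), with TMM, filterByExpr and robust quasi-likelihood dispersions and no covariates, and the filter left out 8837 of 24421 genes. DESeq2 (1.42.0) was the alternative. SE is on the log2 scale, and 95% intervals use the degrees of freedom of the fit. The P-values of edgeR and DESeq2 set the difference between genotypes against the spread between pools, estimated with information shared across genes. Those of the ratios come from regrouping the libraries. Scripts were tested on simulated counts. Libraries were checked for copies, and chi-square values per degree of freedom between pairs were 10.1 to 28.2, far above sampling noise. Coordinates and exon lengths are from Gencode M21. Genes of other lists are named by lowest unadjusted P, up to 3 a list. Figures were drawn with matplotlib (3.10.9).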

Additional observations from a re-analysis of the deposited data

How the results depend on the processing

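Of the 10 endothelial genes, 0 passed the threshold under all 12 alternatives, which were DESeq2, edgeR with DESeq2 size factors, edgeR with library size alone, keeping all genes with a count, asking for 10 counts in every library, the replicate block and each library left out in turn. No gene of the 5 further endothelial lists passed either. Of 120 values of the 10 genes, 108 kept their direction and 12 changed sign, all of them when a library was left out, and the lowest adjusted P was 0.367. Leave-one-out log2 fold changes of the genes that changed sign were -0.11 to 0.032 for *Emcn*, -0.13 to 0.15 for *Erg*, -0.091 to 0.037 for *Flt1*, -0.10 to 0.017 for *Pecam1*, -0.11 to 0.24 for *Sox17*, -0.081 to 0.10 for *Tek* and -0.059 to 0.15 for *Tie1*. Leaving out WT replicate 1 turned *Erg*, *Sox17*, *Tek* and *Tie1*, WT replicate 3 *Emcn* (0.032), *Flt1* and *Pecam1*, mutant replicate 1 *Emcn* (0.030), mutant replicate 2 *Erg* (-0.085), *Tek* (-0.035) and *Tie1*, and mutant replicate 3 *Sox17* (-0.020). The median of the 10 ranged from -0.11 to 0.02 when a library was left out and from -0.03 to -0.02 otherwise. Genes of the whole table past the threshold numbered 1 with edgeR, 84 with DESeq2, 11 without a filter and 0 to 6 with a library left out; the cause was not tested. The log2 ratio of mutant to WT ranged from -0.01 to 0.13 for *Flt1* to *Kdr*, 0.11 to 0.39 for *Sox17* to *Sox18* and -0.02 to 0.04 for *Tie1* to *Tek*. With the longest transcript as length, an alternative chosen after seeing the data, 6 of the 10 genes kept their rank. The number of the 72 further endothelial genes higher in mutants, 39 with all libraries, ranged from 28 to 47 with a library left out, a range also computed after seeing the data.

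What libraries of the same replicate number share beyond the number is not stated in the sources used here. The correlations of their deviations from the group means were 0.169, 0.0317 and 0.36. WT replicates 1 and 3 correlated best with the mutant library of their own number. WT replicate 2 correlated slightly better with mutant replicate 1 (0.0386), so that these values do not settle whether the libraries were paired. With the replicate block, the whole table had 1 call, 10 in place of 7 of the 72 further endothelial genes had an unadjusted P under 0.05, the median of the 10 was -0.03 and *Kdr* had a log2 fold change of -0.10.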

Other observations

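Genes of the cells around and inside the vessels are given as values. Of 11 tested pericyte and smooth muscle genes, 5 were higher in mutants and 6 lower, and 0 passed the threshold in edgeR. *Pdgfrb*, the receptor that pericytes and mesenchyme use to answer PDGFB, had a log2 fold change of -0.15 ± 0.09, *Foxc1* one of -0.11 ± 0.08 and *Myh11*, a smooth muscle myosin, one of 0.56 ± 0.32. All 9 tested primitive erythroid genes were fitted lower in mutants, none past the threshold in edgeR, with *Slc4a1* at -0.29 ± 0.30, *Hba-x* at -0.21 ± 0.23 and *Gata1* at -0.14 ± 0.17. Macrophage genes were scarce, summing to 2.47 to 3.96 CPM in a library, and *Aif1*, *Ptprc* and *Csf1r* had log2 fold changes of 0.71 ± 0.49, -0.87 ± 0.70 and -0.15 ± 0.51. Of 6 megakaryocyte and platelet genes, 2 had enough counts to be tested, *Itga2b* and *Gp1ba*, and each was fitted higher in mutants. *Itga2b*, an early blood and platelet integrin, had means of 3.38 ± 0.312 in WT and 4.32 ± 0.252 in the mutant pools (CPM, SD, n = 3). These did not overlap, as was so for 15.2% of all tested genes, and its adjusted P was 0.484 in edgeR.

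The 5 genes outside the 10 whose log2 CPM most closely followed their mean over the 6 libraries were *Zfp507* (Pearson r of 0.998), *Fam163a* (0.990), *Sh3glb1* (0.988), *Mum1l1* (0.988) and *Pate2* (0.988). None of the 5 is on an endothelial list. An r over 0.8 was found for 13 of 72 other endothelial genes, or 18.1%, against 4.83% of all tested genes outside the 10. Among them were 4 of 12 arterial, 6 of 23 other pan-endothelial, 1 of 9 venous and lymphatic and 0 of 15 VEGF and angiopoietin genes, and 2 of 15 transcription factors. The median r was 0.465 for the 72, but 0.649 for 11 pericyte and smooth muscle genes and 0.648 for 8 endocardial and cardiac genes. It was -0.288 for primitive erythroid and -0.739 for visceral endoderm and yolk sac genes. An r over 0.8 was found for 1 of these 11 pericyte and smooth muscle genes, 0 of these 8 cardiac genes and 1 of 5 macrophage genes. A median r as high was thus not particular to endothelial genes, while an r over 0.8 was more frequent among the 72 than over all tested genes. These correlations rest on 6 libraries that differ in depth and in the tissue of the pool. Y-linked genes were fitted higher in mutants, with *Uty* at a log2 fold change of 0.96 ± 0.38 and *Ddx3y* at 0.88 ± 0.40, and *Xist*, named after its values were seen, was at 0.368 CPM in mutant replicate 2 and 65.0 to 155 CPM in the other 5 libraries. Their part in the endothelial levels was not tested.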
